A study of Mus musculus with 14 samples.

Results

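The cardiac calcium cycle was examined through 10 genes of the sarcoplasmic reticulum, the membrane store from which a heart muscle cell releases calcium for each contraction. They were taken by gene symbol from the 20193 genes of the array table: Ryr2, Trdn and Jph2 of the release unit, Atp2a2, Pln and Sln of reuptake, Casq1 and Casq2 as buffers inside the store, the calcium sensor S100a1, and the exchanger Slc8a1. All 10 were measured, each by 1 row of the table. The cells were HL-1, a mouse line of atrial heart muscle origin that keeps a beating phenotype in culture, grown in Claycomb medium with norepinephrine. They were transfected with siRNA at 10 nM and hybridised to Affymetrix arrays. There were 4 arrays of cells given siAirn-001.1, 4 of cells given siAirn-001.2 and 6 of cells given the control siRNA siScramble, and no other treatment or genotype distinguished the groups. By their names both siAirn reagents are aimed at Airn, a long noncoding RNA known from genomic imprinting. Each array is labelled a biological replicate. No source used here says what separates the 2 reagents, how long transfection lasted, or whether arrays of a group came from separate cultures or days, so the p-values measure the spread between these arrays of 1 cell line.

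In each beat, calcium that enters through surface channels opens the ryanodine receptor Ryr2, and the store empties into the cytoplasm. The pump SERCA2, encoded by Atp2a2, returns the calcium to the store under the brake of phospholamban (Pln) and, in atrial cells, sarcolipin (Sln), while the exchanger encoded by Slc8a1 moves the rest out of the cell. Calsequestrins hold calcium inside the store, triadin (Trdn) ties calsequestrin to the receptor, and junctophilin 2 (Jph2) holds the store close to the surface membrane.

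S100a1 was the member that changed most, and it rose with both reagents: 1.709-fold for siAirn-001.1 and 1.318-fold for siAirn-001.2. Casq1, the calsequestrin best known from skeletal muscle, was lower with siAirn-001.1 and over both reagents together, at 0.783 and 0.7912 times siScramble. The siAirn-001.2 rise of S100a1 and the falls of Casq1 lay near the threshold. In 14 fits that each left out 1 array, that rise passed in 7. The fall of Casq1 passed in 6 with siAirn-001.1 and in 10 over both reagents. The other 8 genes, among them the receptor, the pump and phospholamban, did not pass the test in any of the 4 comparisons made. In Ryr2, Trdn, Atp2a2, Pln, Sln, Casq1 and Slc8a1, arrays of at least 1 reagent lay further apart by their replicate numbers than the means of the reagents did.

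The 250 bases before the transcription start are shown for the 2 genes that passed the test and for Casq2, the heart's calsequestrin, as the close relative of Casq1. They come from RefSeq (GRCm38.p6), where 7 of the 10 members had an entry, and are written 5′ to 3′ on the gene's strand with matches to the searched motifs in capitals. The arrays measured RNA and hold no measurement at these windows.
S100a1, chr3:90514331-90514580, minus strand: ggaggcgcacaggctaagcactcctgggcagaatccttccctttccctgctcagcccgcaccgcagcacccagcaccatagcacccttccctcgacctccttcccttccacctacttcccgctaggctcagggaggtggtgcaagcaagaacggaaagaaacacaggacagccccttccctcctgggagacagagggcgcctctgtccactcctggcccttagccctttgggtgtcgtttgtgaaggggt
Casq1, chr1:172219896-172220145, minus strand: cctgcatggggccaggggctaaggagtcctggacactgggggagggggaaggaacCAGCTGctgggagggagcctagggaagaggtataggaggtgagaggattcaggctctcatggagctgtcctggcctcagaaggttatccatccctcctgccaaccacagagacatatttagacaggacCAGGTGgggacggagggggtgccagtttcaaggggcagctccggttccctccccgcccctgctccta
Casq2, chr3:102086165-102086414, plus strand: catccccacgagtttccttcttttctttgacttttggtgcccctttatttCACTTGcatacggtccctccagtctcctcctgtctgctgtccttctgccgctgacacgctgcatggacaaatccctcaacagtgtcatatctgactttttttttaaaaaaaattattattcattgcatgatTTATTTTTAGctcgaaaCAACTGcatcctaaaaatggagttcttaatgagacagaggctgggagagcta
Motifs of 5 kinds were searched on both strands: the E-box CANNTG, the GATA motif AGATAA, the TATA box TATAAA, and the MEF2 and CArG box motifs by their usual degenerate patterns. A MEF2 or CArG match can share letters with a TATA box match. Casq1 held 2 E-boxes, whose first bases lie 195 and 67 bases before the start. Casq2 held 2 E-boxes, at 200 and 52 bases before the start, and 1 MEF2 match at 69 bases. None of these letters were found in the S100a1 window. Of all 32851 windows in the table, 66.2% held an E-box, 9.99% the GATA motif, 12.4% the TATA box, 2.92% the MEF2 motif and 1.47% the CArG box. A match is a description of the letters and not a measured binding site.

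All levels below are log2 expression values as the authors deposited them, so a difference of 1 is a change of 2 times, and array medians lay between 7.45 and 7.55 in the 14 arrays. Airn itself was read first, as a check of the labels. Its level in the siAirn-001.1 arrays was 93.5%, 89.2%, 48.4% and 48.3% of the siScramble mean in replicates 1 to 4. In the siAirn-001.2 arrays it was 96.2%, 80.5%, 41.4% and 45.5%, against 86.8% to 112.7% in the 6 siScramble arrays. Airn thus lay well below the siScramble range in the arrays numbered 3 and 4 of both reagents, and 3 arrays labelled siAirn (siAirn-001.1 replicates 1 and 2 and siAirn-001.2 replicate 1) lay inside the siScramble range. Airn changed on the log2 scale by −0.59 ± 0.232 (SE) in siAirn-001.1 cells and by −0.695 ± 0.232 in siAirn-001.2 cells. An exact two-sided permutation test over the arrays gave p = 0.0381 for siAirn-001.1 and p = 0.02857 for siAirn-001.2, while the limma adjusted p over all genes was 0.1678 and 0.1926. Each called result of the members, and of the relatives and further calcium genes below, is therefore also given without those 3 arrays. The arrays stay under their labels throughout, and the marker genes were not fitted without them. Of the 7 atrial muscle markers measured, Myl7, Myl4, Tnnt2, Actc1 and Tnni3 averaged 13.20 to 13.67 in the siAirn arrays and 12.98 to 13.69 in siScramble. Nppa and Ttn were the others measured. The lowest gene mean of the list was 9.59 in siAirn-001.1, 9.04 in siAirn-001.2 and 9.39 in siScramble. The list's mean level per array was 12.38 to 12.48 in siAirn-001.1, 11.93 to 12.25 in siAirn-001.2 and 12.0 to 12.36 in siScramble. The endothelial list (4 genes) had a mean of 6.92 to 7.08 in siAirn-001.1, 6.76 to 6.92 in siAirn-001.2 and 6.71 to 6.91 in siScramble, and its member Kdr rose by 0.71 with siAirn-001.1 (limma adjusted p = 0.002049), while Pecam1 and Cdh5 averaged 6.30 and 6.53 in the siAirn arrays against 6.28 and 6.56 in siScramble. Mean levels per array of the other lists were 6.33 to 6.56, 6.49 to 6.66 and 6.6 to 6.8 for ventricular muscle (siAirn-001.1, siAirn-001.2 and siScramble), 7.12 to 7.39 in the siAirn arrays and 7.16 to 7.31 in siScramble for skeletal muscle, 10.36 to 10.55 and 10.35 to 10.57 for smooth muscle, 6.89 to 7.61 and 7.02 to 7.81 for fibroblasts, and 6.11 to 6.37 and 6.21 to 6.39 for macrophages. Of these genes Myl2, of ventricular muscle, fell by 0.54 with siAirn-001.1 (limma adjusted p = 0.04247), and Tnni3 of the atrial list rose by 0.45 (limma adjusted p = 0.001725). The part of these markers in the changes of the calcium genes was not tested. In a bulk sample fewer cells of a type and less RNA per cell cannot be told apart.

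The table was fitted as a whole with limma, with 3 group means over the 14 arrays and Benjamini-Hochberg adjustment over all 20193 genes, and a gene was called at an adjusted p under 0.05. With siAirn-001.1, 1 of the 10 members was called higher and 1 lower, beside 3.43% and 2.53% of all genes. With siAirn-001.2, 1 member was called higher and 0 lower, beside 0.48% and 0.47% of all genes, and 3 members had an unadjusted p under 0.05, beside 11.3% of all genes. Over the mean of both reagents, 1 was called higher and 1 lower, beside 2.15% and 1.97%. Between the reagents, siAirn-001.2 minus siAirn-001.1, 0 members were called higher and 0 lower by limma, beside 0.332% and 0.674% of all genes, and 4 members had an unadjusted p under 0.05, beside 13.4% of all genes. The members' median log2 change was 0.105 for siAirn-001.1 and −0.198 for siAirn-001.2, beside −0.009 and −0.002 over all genes. With siAirn-001.1, 9 of the 10 changes were above 0, and with siAirn-001.2, 2 of 10, beside 46.7% and 48.9% of all genes. These comparisons share the 6 siScramble arrays and are not independent of each other.

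**Figure D1:**
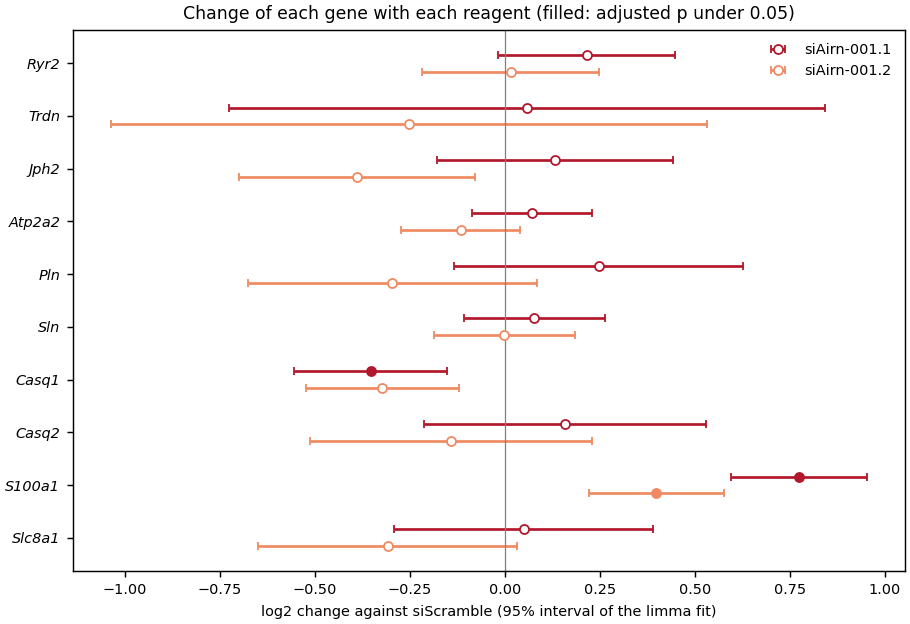
Log2 change of each of the 10 calcium cycling genes (rows) with siAirn-001.1 (dark red) and siAirn-001.2 (orange) against siScramble, with the 95% interval of the limma fit as bars; filled points passed an adjusted p under 0.05. S100a1 lies to the right of 0 with both reagents, at 0.77 and 0.40, Casq1 to the left with both, at −0.35 and −0.32, and only the siAirn-001.1 point of Casq1 is filled.

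S100a1 encodes a small calcium-binding protein of heart muscle that is known to bind the ryanodine receptor and the SERCA2 pump and to raise their activity. Its log2 expression was 12.12, 12.09, 12.16 and 12.16 in the siAirn-001.1 arrays. In the siAirn-001.2 arrays it was 12.02, 11.81, 11.48 and 11.73, and in the 6 siScramble arrays the lowest, median and highest values were 11.27, 11.36 and 11.50. All 4 siAirn-001.1 arrays lay above every other array of the study, and of the siAirn-001.2 arrays 3 lay above the siScramble range and replicate 3 lay just inside it. The group means were 12.13 ± 0.033, 11.76 ± 0.221 and 11.36 ± 0.084 for siAirn-001.1, siAirn-001.2 and siScramble (SD, n = 4, 4 and 6).

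The rise of S100a1 was 0.77 ± 0.084 (log2, SE) with siAirn-001.1, a gain of 70.9%, with a limma adjusted p of 7.45e-05. With siAirn-001.2 it was 0.40 ± 0.084, a gain of 31.8% (limma adjusted p = 0.03465), and over both reagents it was 0.59 ± 0.07 with 8 of 8 arrays above the siScramble mean (limma adjusted p = 0.0002564). That fit takes the 8 arrays as separate, though same-numbered arrays of the reagents are paired in their values. With each replicate number as a block the rise over both reagents was 0.56 (limma adjusted p = 0.003197). Numbers 5 and 6 occur only in siScramble, so these arrays drop out of that estimate, which is the same as without them. The block also pairs siScramble with the reagents by number, a pairing that the values do not show. In the authors' deposited table, which sets all siAirn arrays against siScramble, S100a1 had a log2 difference of 0.586 and an adjusted p of 0.0125. The siAirn-001.1 rise and the rise over both reagents stayed past the threshold with any 1 array left out, and without the 3 arrays inside the siScramble range of Airn the siAirn-001.1 rise was 0.80 (limma adjusted p = 0.0003748) and that over both reagents 0.56 (limma adjusted p = 0.001172). The siAirn-001.2 rise lay near the threshold. It lost its call without siScramble replicate 1, 2, 4 or 5 (adjusted p = 0.07657, 0.07454, 0.09551 and 0.05609) and without siAirn-001.2 replicate 1, 2 or 4 (0.07372, 0.06814 and 0.0899), and the changes then lay between 0.31 and 0.41. Without the 3 arrays inside the Airn range it was 0.31 (limma adjusted p = 0.08252), and without siScramble replicates 5 and 6 it was 0.37 (limma adjusted p = 0.06384). It also fell short with each array centred on its median, with each replicate number as a block and from only the groups compared (limma adjusted p = 0.05127, 0.06708 and 0.06081). Of the 12 settings that did not leave out a single array, the siAirn-001.2 rise passed in 6. Fits with replicate blocks gave the same change, 0.37, as that without siScramble replicates 5 and 6, so they are not separate settings.

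The difference between the reagents in S100a1, siAirn-001.2 minus siAirn-001.1, was −0.38 ± 0.092 (95% interval −0.571 to −0.18). The 2 sets of 4 arrays did not overlap, and the limma adjusted p was 0.06075, short of the threshold. Of 14 fits that left out 1 array, it passed in 1, without siAirn-001.2 replicate 1 (−0.46, limma adjusted p = 0.01502). Without the 3 arrays inside the siScramble range of Airn it passed at −0.49 (limma adjusted p = 0.01787). It also passed with array weights, which count arrays that deviate from their group for less (−0.42, limma adjusted p = 0.03609) and with the replicate block of pairs, which takes numbers 1 and 2, 3 and 4, and 5 and 6 as blocks (limma adjusted p = 0.03393), but not with each number as a block (limma adjusted p = 0.08307).

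Casq1 encodes the calsequestrin that is the main store buffer of fast skeletal muscle. Its log2 values were 6.77, 6.67, 6.83 and 6.84 in the siAirn-001.1 arrays and 6.56, 6.84, 6.97 and 6.87 in the siAirn-001.2 arrays. In siScramble it was 7.27, 7.23, 7.24, 7.23, 6.93 and 6.88 in replicates 1 to 6. All 8 siAirn arrays lay below the siScramble mean of 7.13. The 4 siAirn-001.1 arrays lay below every siScramble array, whereas siAirn-001.2 replicate 3 lay above the siScramble arrays numbered 5 and 6.

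The change of Casq1 was −0.35 ± 0.095 (log2, SE) with siAirn-001.1 (limma adjusted p = 0.03728), and −0.34 ± 0.08 over both reagents (limma adjusted p = 0.02391). With siAirn-001.2 it was −0.32 ± 0.095 and missed the threshold (limma adjusted p = 0.1282), and the reagents' difference was 0.03 (95% interval −0.191 to 0.25, limma adjusted p = 0.9544). In the authors' deposited table the same log2 difference over all siAirn arrays, −0.338, had an adjusted p of 0.0574. The siAirn-001.1 call was lost without siScramble replicate 1, 2, 3 or 4 (adjusted p = 0.08321, 0.08504, 0.07604 and 0.08506) and without siAirn-001.1 replicate 1, 2, 3 or 4 (0.07961, 0.1139, 0.05998 and 0.05927), with changes between −0.37 and −0.32. It was also lost when each array was centred on its median (−0.33, limma adjusted p = 0.07326). The call over both reagents was lost without siScramble replicate 1, 2, 3 or 4 (0.06899, 0.07228, 0.05798 and 0.07266), with changes between −0.32 and −0.31. Without the 3 siAirn arrays inside the Airn range the change of Casq1 was −0.30 with siAirn-001.1 and −0.27 over both reagents, and neither passed (limma adjusted p = 0.1546 and 0.09534). Without siScramble replicates 5 and 6, the 2 arrays in which Casq1 was lowest in that group, its changes were −0.46 with siAirn-001.1, −0.43 with siAirn-001.2 and −0.45 over both reagents, all past the threshold (limma adjusted p = 0.004917, 0.0176 and 0.002804). The siAirn-001.2 change also passed with array weights (−0.35, limma adjusted p = 0.02805). The row of Casq1 is dim, under the median of all rows (7.48), where RMA damps differences.

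**Figure D2:**
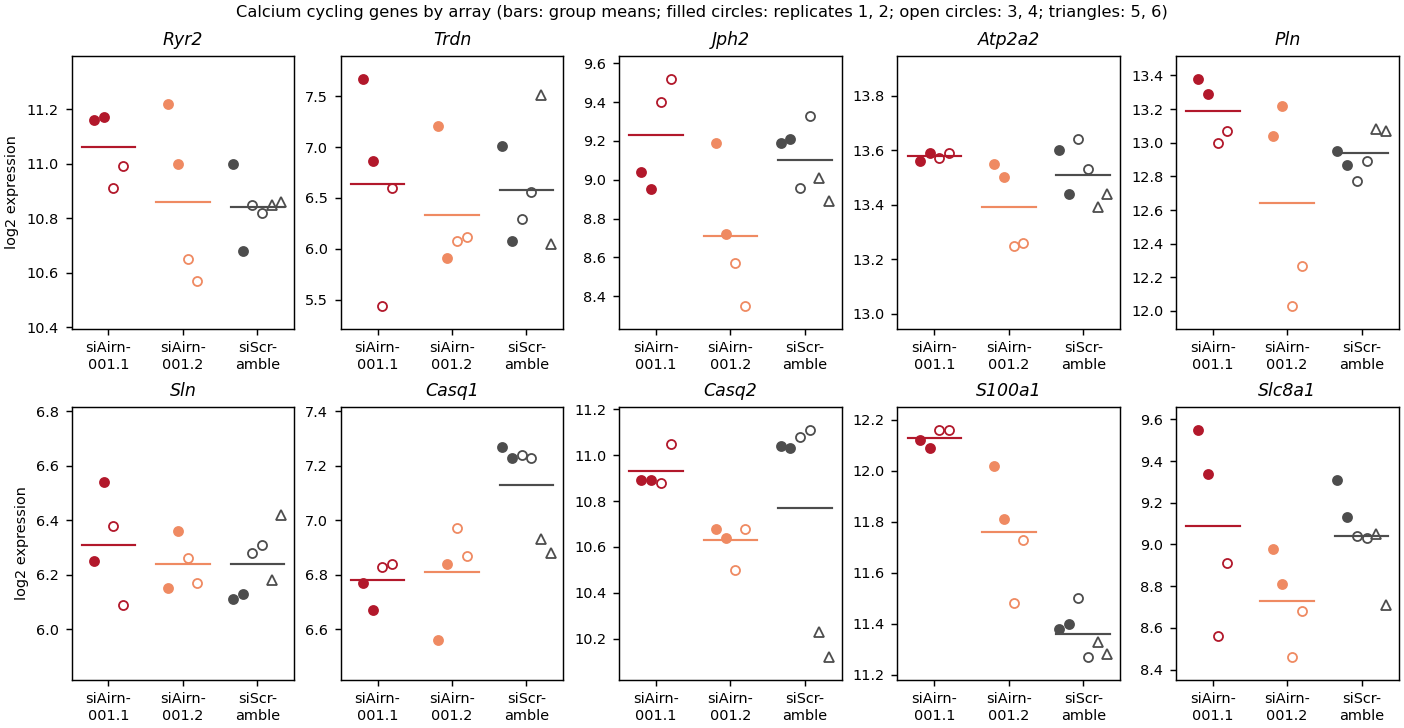
Log2 expression of each of the 10 genes (panels, each with its own vertical scale) in the arrays of siAirn-001.1, siAirn-001.2 and siScramble, in replicate order within a group; filled circles are replicates 1 and 2, open circles 3 and 4, triangles 5 and 6, and bars are group means. The siAirn-001.1 arrays of S100a1 sit between 12.09 and 12.16, above all others, and the siScramble arrays 5 and 6 of Casq2 sit at 10.23 and 10.12, apart from the other 4.

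Casq2 encodes the cardiac calsequestrin, which buffers calcium beside the release channel and restrains its opening. The arrays gave a log2 expression of 10.89, 10.89, 10.88 and 11.05 in the siAirn-001.1 arrays and 10.68, 10.64, 10.50 and 10.68 in the siAirn-001.2 arrays. In siScramble it was 11.04, 11.03, 11.08 and 11.11 in replicates 1 to 4 and 10.23 and 10.12 in replicates 5 and 6. The siScramble arrays thus lay on both sides of both siAirn groups, and replicates 5 and 6 averaged 10.18, which is 0.89 below the 11.07 of replicates 1 to 4. Casq1 was likewise lower in siScramble replicates 5 and 6 than in any of 1 to 4, by 0.33 on average. These 2 of the 10 members had both arrays below the other 4, beside 15.2% of all genes. What distinguishes siScramble replicates 5 and 6 is not given in the labels, and the values of both calsequestrins without them are given.

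Against all 6 siScramble arrays the change of Casq2 was 0.16 ± 0.175 (log2, SE) for siAirn-001.1 and −0.14 ± 0.175 for siAirn-001.2, and neither passed (limma adjusted p = 0.7609 and 0.9272). Without siScramble replicates 5 and 6, Casq2 fell by 0.44 with siAirn-001.2 (limma adjusted p = 0.006004) and by 0.29 over both reagents (limma adjusted p = 0.01239), while with siAirn-001.1 the change was −0.14 (limma adjusted p = 0.2856). The difference between the reagents does not use siScramble values: it was −0.30 ± 0.192 for siAirn-001.2 minus siAirn-001.1, with no overlap between the 2 sets of 4 arrays. It did not pass the test (limma adjusted p = 0.575), in a fit whose spread for Casq2 includes that of the siScramble arrays. Nor did it pass from only the 2 reagents' arrays, whose spread holds no siScramble array, or without siScramble replicates 5 and 6. With the replicate block of pairs the same difference passed (limma adjusted p = 0.02892), and with each number as a block it fell just short (limma adjusted p = 0.05181). The block of pairs was the 1 of 12 settings, besides leaving out 1 array, in which it passed, and it passed in 0 of 14 fits without 1 array.

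Of the release unit, Ryr2 encodes the channel through which the store releases calcium. Its log2 levels were 11.16, 11.17, 10.91 and 10.99 in the siAirn-001.1 arrays and 11.22, 11, 10.65 and 10.57 in the siAirn-001.2 arrays, against a lowest, median and highest value of 10.68, 10.85 and 11 in siScramble. The groups overlapped. With both reagents the arrays numbered 3 and 4 lay below those numbered 1 and 2, by 0.22 on average for siAirn-001.1 and by 0.50 for siAirn-001.2. The change was 0.21 ± 0.11 for siAirn-001.1 and 0.02 ± 0.11 for siAirn-001.2 (SE; limma adjusted p = 0.332 and 0.9973).

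Jph2 encodes the protein that spans from the surface membrane to the store. The log2 levels were 9.04, 8.95, 9.40 and 9.52 in the siAirn-001.1 arrays and 9.19, 8.72, 8.57 and 8.35 in the siAirn-001.2 arrays, against 8.89, 9.10 and 9.33 as the lowest, median and highest in siScramble. The arrays numbered 3 and 4 were the highest of siAirn-001.1 and the lowest of siAirn-001.2. The change was 0.13 ± 0.147 for siAirn-001.1 and −0.39 ± 0.147 for siAirn-001.2 (limma adjusted p = 0.7582 and 0.2678), and the reagents' difference was −0.52 ± 0.161 (limma adjusted p = 0.1377). Of 14 fits that left out 1 array, that difference passed in 1, without siAirn-001.2 replicate 1 (−0.68, limma adjusted p = 0.02889). Without the 3 arrays inside the siScramble range of Airn the change of Jph2 was −0.55 with siAirn-001.2 (limma adjusted p = 0.02732) and 0.37 with siAirn-001.1 (limma adjusted p = 0.1092), and the difference was −0.91 (limma adjusted p = 0.003841). With array weights the siAirn-001.2 change also passed (−0.52, limma adjusted p = 0.03152).

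Trdn, the anchor of calsequestrin, varied most of the 10 members between arrays of a group, on a dim row whose mean lay above 33.5% of all rows. Log2 expression stood at 7.67, 6.86, 5.44 and 6.60 in the siAirn-001.1 arrays and 7.21, 5.91, 6.08 and 6.12 in the siAirn-001.2 arrays, and 6.05, 6.43 and 7.51 were the lowest, median and highest in siScramble. The SD within a group was 0.924, 0.593 and 0.577 for siAirn-001.1, siAirn-001.2 and siScramble. The interval of the siAirn-001.1 change, −0.726 to 0.843, and that of siAirn-001.2, −1.037 to 0.531, leave changes in either direction within the error, and neither passed (limma adjusted p = 0.9699 and 0.9503).

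Of the reuptake genes, Atp2a2, which encodes the pump, had the smallest standard error of the 10 members, 0.074 for either reagent. Its log2 expression was 13.56, 13.59, 13.57 and 13.59 in the siAirn-001.1 arrays and 13.55, 13.50, 13.25 and 13.26 in the siAirn-001.2 arrays, against 13.39, 13.49 and 13.64 as the lowest, median and highest in siScramble. The siAirn-001.1 arrays lay close to each other and inside the siScramble range, and siAirn-001.2 replicates 3 and 4 lay under that range. The change was 0.07 (95% interval −0.086 to 0.228) for siAirn-001.1 and −0.12 (−0.273 to 0.04) for siAirn-001.2, and neither passed (limma adjusted p = 0.736 and 0.6635). All 4 siAirn-001.2 arrays were below all 4 siAirn-001.1 arrays, with a difference of −0.19 ± 0.081 (limma adjusted p = 0.32).

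Pln encodes phospholamban, which slows the pump until it is phosphorylated. Its log2 values were 13.38, 13.29, 13 and 13.07 in the siAirn-001.1 arrays and 13.04, 13.22, 12.03 and 12.27 in the siAirn-001.2 arrays, against 12.77, 12.92 and 13.08 as the lowest, median and highest in siScramble. The siAirn-001.2 arrays numbered 3 and 4 lay 0.98 below those numbered 1 and 2 on average, and below every other array of the study. With 4 arrays a reagent the change was 0.25 ± 0.18 for siAirn-001.1 and −0.30 ± 0.18 for siAirn-001.2 (SE), and neither passed (limma adjusted p = 0.5615 and 0.6355). The reagents' difference of −0.54 ± 0.197 did not pass either (limma adjusted p = 0.2166). Of 14 fits that left out 1 array, it passed in 1, without siAirn-001.2 replicate 2 (−0.74, limma adjusted p = 0.03627). It also passed with array weights (−0.75, limma adjusted p = 0.04771) and with the replicate block of pairs (limma adjusted p = 0.04467), but not with each number as a block (limma adjusted p = 0.1003).

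Sln, the atrial inhibitor of the pump, had a log2 expression of 6.25, 6.54, 6.38 and 6.09 in the siAirn-001.1 arrays and 6.15, 6.36, 6.26 and 6.17 in the siAirn-001.2 arrays, against 6.11, 6.23 and 6.42 as the lowest, median and highest in siScramble. The 3 groups overlapped throughout. The change was 0.08 with siAirn-001.1 (95% interval −0.108 to 0.263) and −0.002 with siAirn-001.2 (−0.188 to 0.184), on a dim row.

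Slc8a1 encodes the sodium-calcium exchanger NCX1 of the surface membrane. The arrays gave a log2 expression of 9.55, 9.34, 8.56 and 8.91 in the siAirn-001.1 arrays and 8.98, 8.81, 8.46 and 8.68 in the siAirn-001.2 arrays, against 8.71, 9.04 and 9.31 as the lowest, median and highest in siScramble. Here again the arrays numbered 3 and 4 were the lowest of each reagent, by 0.71 on average for siAirn-001.1 and 0.32 for siAirn-001.2. The change was 0.05 ± 0.161 for siAirn-001.1 and −0.31 ± 0.161 for siAirn-001.2 (SE; limma adjusted p = 0.9381 and 0.5202).

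The order of the 3 group means from high to low was siAirn-001.1, siAirn-001.2 and siScramble for S100a1 and Ryr2, and the opposite for Casq1. For Jph2, Atp2a2, Pln, Casq2, Slc8a1 and Trdn the order was siAirn-001.1, siScramble and siAirn-001.2. For Sln, siAirn-001.1 was the highest and the means of siAirn-001.2 and siScramble were both 6.24. The only neighbours in these orders that differed past the threshold were siAirn-001.2 and siScramble for S100a1, and for Casq1 it was the ends of the order, siAirn-001.1 and siScramble, that did.

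**Figure D3:**
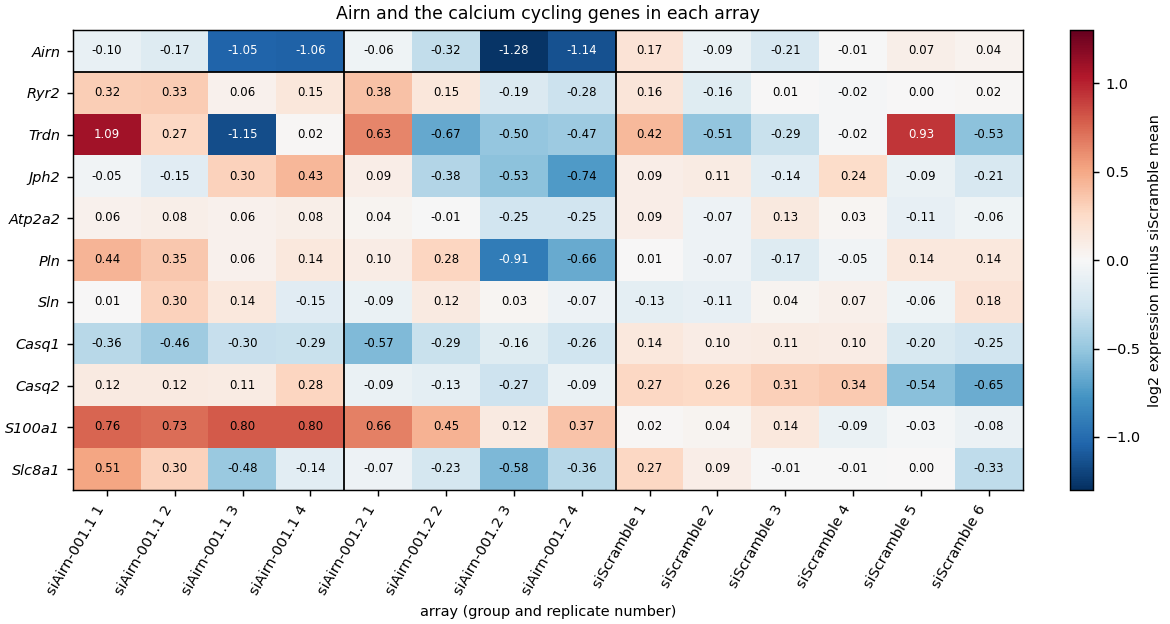
Log2 expression of Airn (top row) and of the 10 genes in each of the 14 arrays, minus the gene's siScramble mean, with red for higher and blue for lower; columns are arrays by group and replicate number. Airn is lowest in replicates 3 and 4 of both reagents, from −1.28 to −1.05, and in the siAirn-001.2 columns 3 and 4 Ryr2, Jph2, Atp2a2, Pln and Slc8a1 are lower than in columns 1 and 2.

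The arrays of 1 reagent differed by their replicate numbers in some of the members, in both directions. In siAirn-001.1, replicates 3 and 4 both lay below replicates 1 and 2 in 4 of the 10 members (Ryr2, Trdn, Pln and Slc8a1), beside 23.8% of all genes. In siAirn-001.2 they did so in 6 of the 10 members (Ryr2, Jph2, Atp2a2, Pln, S100a1 and Slc8a1), beside 27.5% of all genes. Replicates 3 and 4 both lay above replicates 1 and 2 in Jph2, Casq1 and S100a1 with siAirn-001.1 and in Casq1 with siAirn-001.2. The share of all genes in that direction was not computed. The arrays numbered 3 and 4 are also those in which Airn was at 41.4% to 48.4% of siScramble, and what else the numbers stand for is not given, so their part in these values was not tested.

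When replicates 1 and 2 of both reagents were left out, so that 2 arrays a reagent remained, Pln fell by 0.78 with siAirn-001.2 (limma adjusted p = 0.0008208) and by 0.34 over both reagents (limma adjusted p = 0.02033), with a change of 0.10 with siAirn-001.1. Jph2 fell by 0.63 with siAirn-001.2 (limma adjusted p = 0.00575), with a change of 0.37 with siAirn-001.1 (limma adjusted p = 0.07503), and the reagents differed by −1.0 (limma adjusted p = 0.0009111). Slc8a1 fell by 0.39 over both reagents (limma adjusted p = 0.0486). S100a1 rose by 0.80 with siAirn-001.1 in the same fit, and its change with siAirn-001.2 was 0.24 (limma adjusted p = 0.1357). Casq1 was at −0.30 with siAirn-001.1, short of the threshold (limma adjusted p = 0.1364).

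When replicates 3 and 4 of both reagents were left out instead, Pln rose by 0.40 with siAirn-001.1 (limma adjusted p = 0.02012), with a change of 0.19 with siAirn-001.2 (limma adjusted p = 0.3689). Ryr2 rose by 0.32 with siAirn-001.1 (limma adjusted p = 0.03998). The direction for Pln over both reagents was thus opposite in the 2 subsets, −0.34 and 0.29, and passed the threshold in each. S100a1 rose by 0.55 with siAirn-001.2 in this subset (limma adjusted p = 0.008953), and Casq1 fell by 0.41 with siAirn-001.1 (limma adjusted p = 0.04646). The rise of S100a1 with siAirn-001.1 was thus past the threshold in both subsets.

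**Figure D4:**
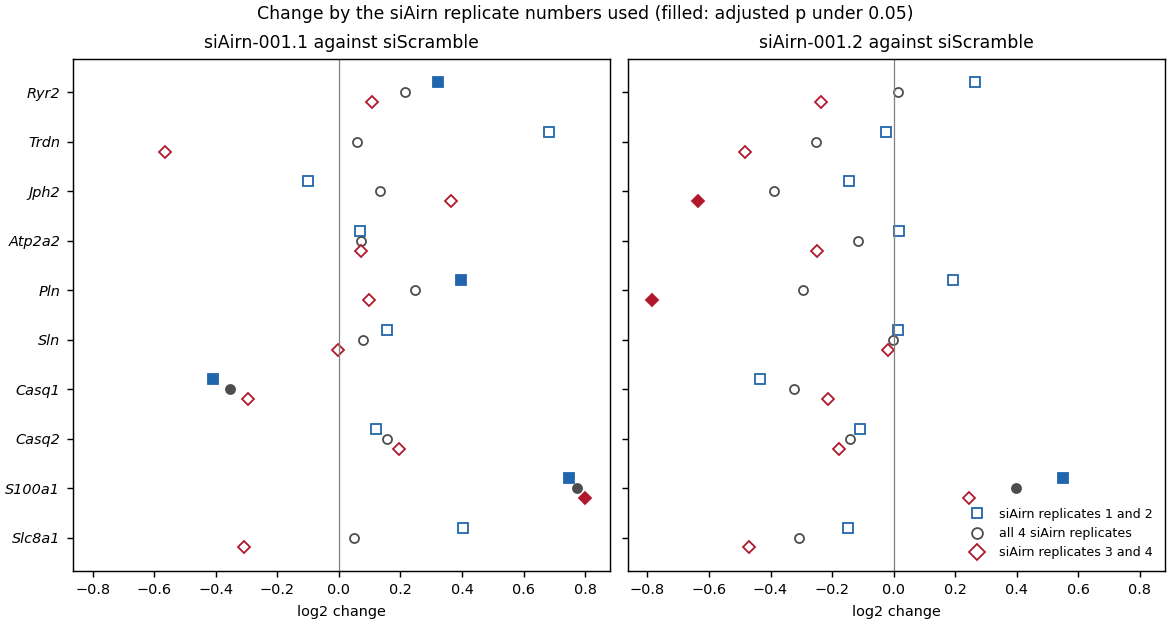
Log2 change of each gene against siScramble with siAirn-001.1 (left) and siAirn-001.2 (right), from siAirn replicates 1 and 2 (blue squares), all 4 (grey circles) and replicates 3 and 4 (red diamonds); filled symbols passed an adjusted p under 0.05. For S100a1 with siAirn-001.1 all 3 symbols are filled and lie between 0.75 and 0.80, while for Pln with siAirn-001.2 they run from −0.78 to 0.19.

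The genes whose values over the 14 arrays lay nearest to those of S100a1 were found by the root mean square distance, after the siScramble mean of each gene was taken off. They were Sphkap, Clic5 and Ampd3, at distances of 0.079, 0.103 and 0.126 (log2), where S100a1 itself lay 0.479 from its siScramble mean. Sphkap was 11.12, 11.09, 11.11 and 11.27 in the siAirn-001.1 arrays and 10.91, 10.76, 10.39 and 10.48 in the siAirn-001.2 arrays, against 10.18 to 10.33 in siScramble. As in S100a1, the siAirn-001.1 arrays of Sphkap were the highest and siAirn-001.2 lay between. The nearest to Casq1 were Ikbkap, Polr2h and Umps, at 0.085, 0.09 and 0.103, where Casq1 lay 0.29 from its siScramble mean. These are the closest of the whole table and were picked for it, so they are given as a description.

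The relatives of the members were counted as well, 23 of 23 measured. With siAirn-001.1, S100a13 was the 1 relative called, with a rise of 0.41 ± 0.116 (log2, SE; limma adjusted p = 0.04476), beside the 3.43% of all genes called higher. With siAirn-001.2, over both reagents and between reagents, limma called 0 of the 23, and 0, 1 and 2 had an unadjusted p under 0.05, beside 11.3%, 15.8% and 13.4% of all genes. S100a13, a neighbour of S100a1 on chromosome 3, had 9.18, 9.40, 9.31 and 9.63 in the siAirn-001.1 arrays and 9.27, 9.13, 8.64 and 8.90 in the siAirn-001.2 arrays, against 8.77, 8.94 and 9.16 as the lowest, median and highest in siScramble. It was thus above the siScramble range in all siAirn-001.1 arrays, and its siAirn-001.2 change was 0.02 (limma adjusted p = 0.997), unlike the 0.40 of S100a1. The RefSeq records of the 2 genes overlap, and no source used here says whether the probes of each row tell them apart. The call of S100a13 was lost in 9 of the 14 fits that left out 1 array: siScramble replicates 1, 2, 4, 5 or 6 (adjusted p = 0.09189, 0.08857, 0.05793, 0.08262 and 0.06525), siAirn-001.1 replicates 2, 3 or 4 (0.1022, 0.06709 and 0.1381) and siAirn-001.2 replicate 4 (0.05344). Ryr1, Ryr3, Atp2a1 and Atp2a3, the skeletal and other forms of receptor and pump, had changes between −0.052 and −0.003 with siAirn-001.1 and between −0.020 and 0.157 with siAirn-001.2. S100a11 was at 9.87, 9.84, 11.04 and 11 in the siAirn-001.1 arrays and 10.38, 10.14, 11.86 and 11.66 in the siAirn-001.2 arrays, against 10.61 to 11.61 in siScramble, so that it was higher in the arrays numbered 3 and 4 of both reagents, and its siAirn-001.1 change of −0.71 did not pass (limma adjusted p = 0.286).

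Of 60 further genes that handle calcium around the store, 57 were measured. With siAirn-001.1, limma called 4 higher and 0 lower, beside 3.43% and 2.53% of all genes. With siAirn-001.2 limma called 0, and 8 had an unadjusted p under 0.05, beside 11.3% of all genes. Over both reagents 1 was called higher, beside 2.15%, and between reagents 1 was called lower with siAirn-001.2, beside 0.674%. In these 2 comparisons 14 and 14 had a limma unadjusted p under 0.05, beside 15.8% and 13.4% of all genes. The list's median change was 0.009 for siAirn-001.1 and −0.029 for siAirn-001.2, near those of all genes. Sarcalumenin (Srl), a calcium-binding protein of the store, was the 1 of 14 partners of the release unit called with siAirn-001.1. It had 9.88, 9.93, 9.94 and 10.01 in the siAirn-001.1 arrays against 9.38, 9.64 and 9.78 as the lowest, median and highest in siScramble, with no overlap and a change of 0.36 (limma adjusted p = 0.01649), and it lost the call without siAirn-001.1 replicate 4 (0.33, limma adjusted p = 0.05352).

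Among 13 surface and store entry channel genes, the called ones were Cacnb2 and Cacna2d2, accessory subunits of voltage-gated calcium channels. Cacnb2 had 11.12, 11.07, 11.07 and 11.18 in the siAirn-001.1 arrays and 10.79, 10.85, 10.56 and 10.64 in the siAirn-001.2 arrays, against 10.69, 10.74 and 10.86 as the lowest, median and highest in siScramble. It stood above every other array in siAirn-001.1 and was not raised in siAirn-001.2. Its rise was 0.36 ± 0.067 with siAirn-001.1 (limma adjusted p = 0.005251), a call that held with any 1 array left out, and the reagents differed by −0.40 ± 0.074 (limma adjusted p = 0.02015). That difference was lost without siAirn-001.1 replicate 4 or siAirn-001.2 replicate 3 or 4 (adjusted p = 0.07235, 0.0905 and 0.08907), and without the 3 arrays inside the siScramble range of Airn it was −0.44 (limma adjusted p = 0.02224). Cacna2d2 rose by 0.39 with siAirn-001.1 (limma adjusted p = 0.03343), a call lost without siScramble replicate 1, 2, 4, 5 or 6 (0.06132, 0.0562, 0.05283, 0.06356 and 0.05398) or siAirn-001.1 replicate 2, 3 or 4 (0.06101, 0.05548 and 0.1116).

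Among 19 kinases, phosphatases and anchors, Prkar2a, a regulatory subunit of protein kinase A, was called. It had 10.64, 10.48, 10.86 and 11.09 in the siAirn-001.1 arrays and 10.64, 10.35, 10.81 and 10.82 in the siAirn-001.2 arrays, against 10.04, 10.29 and 10.45 as the lowest, median and highest in siScramble. All 8 siAirn arrays were above the siScramble mean, and the rise was 0.50 with siAirn-001.1 and 0.44 over both reagents (limma adjusted p = 0.02361 and 0.02279). The first was lost without siAirn-001.1 replicate 3 or 4 (0.06409 and 0.08237) and the second without siScramble replicate 3 (0.05256). Without the 3 arrays inside the siScramble range of Airn, the siAirn-001.1 changes were 0.37 for Cacnb2, 0.50 for Cacna2d2, 0.70 for Prkar2a and 0.50 for S100a13, all past the threshold, and 0.39 for Srl, just short of it (limma adjusted p = 0.05283). In the same setting Prkar2a rose by 0.54 over both reagents (limma adjusted p = 0.01167). Without siScramble replicates 5 and 6, the siAirn-001.1 calls of Cacna2d2, Prkar2a and S100a13 were lost (0.33, 0.41 and 0.36, limma adjusted p = 0.1001, 0.07792 and 0.1172), as was that of Prkar2a over both reagents (0.35, limma adjusted p = 0.08729). None of the 7 export pump and mitochondrial uptake genes and none of the 4 store lumen chaperones was called by limma with either reagent, and their changes lay between −0.218 and 0.267.

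**Figure D5:**
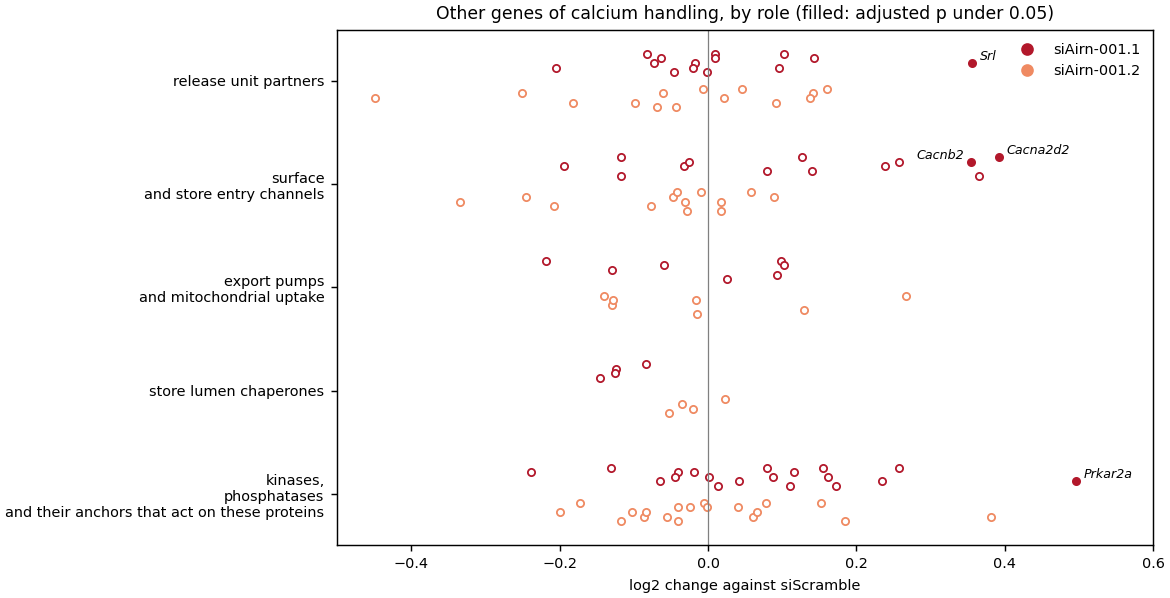
Log2 change against siScramble of the 57 further calcium handling genes, by role (rows), with siAirn-001.1 (dark red) and siAirn-001.2 (orange); filled points passed an adjusted p under 0.05 and are named. The filled points are Srl, Cacnb2, Cacna2d2 and Prkar2a with siAirn-001.1, between 0.36 and 0.50, and no siAirn-001.2 point is filled.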

How the data were processed

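The 14 arrays carried total RNA of HL-1 cells, 4 with siAirn-001.1, 4 with siAirn-001.2 and 6 with siScramble. The authors deposited log2 expression values per array and gene. The submitters' processing notes name RMA and limma, with no version. RMA gives all arrays nearly the same distribution, which hides a shift common to most genes, and it damps differences between dim rows. Per the file headers, the authors also deposited, for the pooled contrast of all siAirn arrays with siScramble, a log2 difference with its p-value and adjusted p-value. The values in a further deposited log2 table differ from these by at most 0.005. No source used here gives the array model, the genome build or the annotation.

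From these values, limma 3.58.1 (R 4.3.3; lmFit and eBayes, default settings) fitted 3 group means to all 20193 rows, with 11 residual and 5.31 prior degrees of freedom, and p-values were adjusted over all rows by Benjamini-Hochberg with a threshold of 0.05. The log2 changes are two-sided tests for each reagent against siScramble, for the mean of both, and between reagents. Airn was also tested with an exact permutation test in scipy 1.17.1. The fit was tested on simulated data. Beside it, 26 other settings were tried, 14 of which left out 1 array. The number of arrays limits the precision.

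The members, the lists of relatives and of 60 further genes, and the markers were chosen with earlier results of these data known, so no count over a list is independent support. Named with values were all members, list genes past the threshold, and for S100a1 and Casq1 the 3 genes nearest by root mean square distance. Kdr, S100a11 and the other markers and relatives given were named for the contrast they show. Of the symbols, 17433 are current mouse names in RefSeq (GRCm38.p6) and 2048 are older ones, and 712 were not found there. Of the marker list, 34 of 35 were used here. The replicate numbers pair the arrays of the 2 reagents: the deviations of all 4 same-numbered pairs correlated over 0.1 (0.318 to 0.534), and each was the best match between those groups. They do not pair either reagent with siScramble, where 2 of 4 pairs of siAirn-001.1 and 1 of 4 of siAirn-001.2 correlated over 0.1. The pairing comes from the values, since the labels give only the numbers. The main fit does not use it, so its comparisons over both reagents take paired arrays as separate.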

Additional observations from a re-analysis of the deposited data

Results flagged for a closer look

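The values of Trdn and Casq2 were set apart in 1 array each. In siAirn-001.2, replicate 1 of Trdn was the highest at 7.21, with a gap to the next array of 0.839 of the group's range, and the other 3 arrays lay between 5.91 and 6.12. In siAirn-001.1, replicate 4 of Casq2 was the highest at 11.05, with a gap of 0.932 of a range that was itself narrow, 10.88 to 11.05. Of 33 gene and group pairs searched, 2 were set apart in this way, and chance alone sets apart about 1 in 20.

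Casq2 also lay on opposite sides of the siScramble mean of 10.77 with the 2 reagents. All 4 siAirn-001.2 arrays lay below it and all 4 siAirn-001.1 arrays above it, with a difference of −0.30 for siAirn-001.2 minus siAirn-001.1. The test of that difference did not pass (limma adjusted p = 0.575). It passed only with the replicate block of pairs (limma adjusted p = 0.02892), 1 of 12 settings besides leaving out 1 array. The siScramble mean lies between the 4 arrays near 11.07 and the 2 near 10.18, at a level that none of its arrays had.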

How the results depend on the processing

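The rise of S100a1 with siAirn-001.1 and over both reagents kept its direction and its call in all 26 and 25 other settings. The mean of both reagents could not be fitted from only the groups compared, since it uses every group. Over the 1030 values of the 10 members' changes in other settings, 895 kept direction and side of the threshold. With direction kept, 30 fell short of it and 30 came past it. A further 75 turned sign, and some of these also came past the threshold, such as Casq2 in the mean with the replicate block. The number of genes called over the whole table depended more on the setting. With 1203, 192, 833 and 203 genes called for siAirn-001.1, for siAirn-001.2, for their mean and for the difference between the reagents, leaving out 1 array gave 770 to 1259, 46 to 254, 378 to 981 and 20 to 571. The replicate numbers pair the 2 reagents with each other but not with siScramble. With the replicate block the difference between the reagents had 293 calls and no named gene changed its call there, while the counts against siScramble, where the numbers pair nothing, were 1845, 563 and 1550. Casq1 and Casq2 then passed with siAirn-001.2 (limma adjusted p = 0.0187 and 0.008369), and S100a1 lost its call with that reagent (limma adjusted p = 0.06708). Their log2 changes in this fit, −0.43, −0.44 and 0.37, were the same as without siScramble replicates 5 and 6. Those numbers occur only in siScramble and drop out of the block estimates, so these settings are not separate from each other. With the replicate block of pairs all 4 counts were 2310, 940, 1956 and 676. Array weights gave 1906, 969, 1927 and 509. Without siAirn replicates 3 and 4 they were 1957, 313, 2331 and 2, and without siAirn replicates 1 and 2 those for siAirn-001.2, the mean and the difference were 1285, 1332 and 1979. Without siScramble replicates 5 and 6 the siAirn-001.2 count was 413, and the difference count was 25 from only the groups compared and 999 without the 3 arrays inside the siScramble range of Airn.

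The values that turned sign follow, and the cause was not tested. In either replicate block, and without siScramble replicates 5 and 6, Casq2 was at −0.14 with siAirn-001.1 and −0.29 in the mean (limma adjusted p = 0.01253 with the replicate block), Slc8a1 at −0.034 with siAirn-001.1, Sln at 0.030 with siAirn-001.2, and Trdn and Pln at 0.0018 and 0.045 in the mean. With array weights, Ryr2 and Sln were at −0.048 and 0.019 with siAirn-001.2, and Casq2 at −0.15 in the mean. Without the 3 arrays inside the Airn range, and likewise without siAirn replicates 1 and 2, Trdn, Sln and Slc8a1 were at −0.57, −0.0022 and −0.31 with siAirn-001.1. With the 3 arrays out, Ryr2 and Sln were at −0.11 and 0.027 with siAirn-001.2, and Trdn and Sln at 0.019 and 0.029 in the difference. Without replicates 1 and 2, Ryr2 was at −0.24 with siAirn-001.2, Ryr2 and Sln at −0.064 and −0.011 in the mean, and Trdn at 0.083 in the difference. Without replicates 3 and 4, Jph2 was at −0.10 with siAirn-001.1, Atp2a2, Pln and Sln at 0.017, 0.19 and 0.016 with siAirn-001.2, Trdn, Atp2a2, Pln and Slc8a1 at 0.33, 0.043, 0.29 and 0.13 in the mean, and Casq1 at −0.024 in the difference. With 1 array left out, Trdn ran from −0.29 to 0.46 and Slc8a1 from −0.11 to 0.22 with siAirn-001.1, and Ryr2 from −0.11 to 0.11 and Sln from −0.043 to 0.035 with siAirn-001.2. In the mean, Atp2a2 ran from −0.049 to 0.0032, Casq2 from −0.12 to 0.075, Pln from −0.12 to 0.077 and Trdn from −0.27 to 0.10, and in the difference Casq1 ran from −0.023 to 0.11 and Trdn from −0.71 to 0.032.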
